A study of Mus musculus with 13 samples.

Results

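The promoters of 22367 protein-coding genes were sorted by whether they carried endogenous AEBP2, the histone mark H3K27me3, both or neither in wild-type mouse embryonic stem cells (mESCs). A promoter was taken as 1 kb on either side of the annotated start of the gene on chromosomes 1 to 19, X and Y of the mm9 build. A target was counted as present where a peak from each of its 2 replicate lists overlapped this window. By this rule 1316 promoters carried both (5.88% of all promoters), 572 carried AEBP2 only (2.56%), 2033 carried H3K27me3 only (9.09%) and 18446 carried neither (82.5%). Peaks are regions where DNA fragments recovered with an antibody pile up, and the authors called them separately in each sample. All samples used here came from a male embryonic stem cell line of strain 129/1 that the labels give as wild-type. AEBP2 was recovered with an antibody raised in the study, and the mark with a commercial antibody that the labels call anti-H3K27 and the paper assigns to H3K27me3. One more list, FS2-AEBP2, came from cells expressing AEBP2 with a Flag and StrepII tag (1 sample, no replicate), and it played no part in the sorting. The paper names E14 cells for the tagged protein, whereas the labels give the same line as for the others. Read counts are absent from the lists, and the depth of each sample is therefore unknown. No control for the AEBP2 antibody in cells without AEBP2 was used here.

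Polycomb repressive complex 2 (PRC2) is the enzyme complex that places methyl groups on lysine 27 of histone H3, and in mESCs H3K27me3 covers CpG-rich promoters of developmental genes that are silent or poised. AEBP2 is an accessory PRC2 subunit with zinc fingers, found together with JARID2 in one form of the complex. CpG islands are stretches in which the CG dinucleotide has not been lost to methylation, and they sit at most housekeeping promoters and at many developmental ones.

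The 200 bases just upstream of the gene start are shown for 4 promoters, 1 from each group, as single examples that do not stand for the CpG content of their groups. Foxc2 and Rpl22 had the highest mean rank over the 2 AEBP2 lists in their groups and Lyl1 over the 2 H3K27me3 lists, and Dppa2 was the first pluripotency gene by name among the promoters with neither. All are on the plus strand of mm9, read 5′ to 3′, with each CG dinucleotide in capitals. Foxc2 (chr8:123639871-123640070), with both, encodes a forkhead transcription factor of mesoderm. Rpl22 (chr4:151699651-151699850), with AEBP2 only, encodes a protein of the large ribosomal subunit. Lyl1 (chr8:87225156-87225355), with H3K27me3 only, encodes a blood-cell transcription factor, and Dppa2 (chr16:48310390-48310589), with neither, is expressed in pluripotent cells.
Foxc2: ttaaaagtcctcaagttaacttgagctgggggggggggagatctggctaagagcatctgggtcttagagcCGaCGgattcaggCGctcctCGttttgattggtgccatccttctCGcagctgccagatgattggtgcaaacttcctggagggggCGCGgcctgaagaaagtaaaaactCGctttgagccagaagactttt
Rpl22: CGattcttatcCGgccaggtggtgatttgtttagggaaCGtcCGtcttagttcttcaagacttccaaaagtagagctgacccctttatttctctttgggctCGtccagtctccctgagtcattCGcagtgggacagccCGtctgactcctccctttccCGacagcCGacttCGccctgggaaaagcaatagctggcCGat
Lyl1: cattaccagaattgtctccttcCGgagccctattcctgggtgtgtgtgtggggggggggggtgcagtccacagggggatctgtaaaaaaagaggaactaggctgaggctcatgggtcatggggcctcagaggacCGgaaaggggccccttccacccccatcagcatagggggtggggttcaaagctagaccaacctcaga
Dppa2: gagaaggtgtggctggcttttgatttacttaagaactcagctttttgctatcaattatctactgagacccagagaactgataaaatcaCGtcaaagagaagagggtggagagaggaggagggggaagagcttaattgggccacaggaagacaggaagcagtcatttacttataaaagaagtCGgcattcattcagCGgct
These stretches held 8 CpGs for Foxc2, 11 for Rpl22, 2 for Lyl1 and 3 for Dppa2. Over whole groups, a region meeting criteria of GC and CpG content, here called CpG-island-like, overlapped 97.04% of promoters with both and 98.1% of those with AEBP2 only. It overlapped 78.8% of promoters with H3K27me3 only and 48.1% of those with neither, against 55.04% of all promoters. The median ratio of observed to expected CpGs was 0.663 with both, 0.708 with AEBP2 only, 0.534 with H3K27me3 only and 0.393 with neither. Both AEBP2 groups were thus CpG-rich, but their GC content was not alike, with a median of 59.3% with both and 55.1% with AEBP2 only. Lyl1 was low for its group, with a CpG ratio of 0.317 against a lower quartile of 0.416, and no CpG-island-like region. It also had an AEBP2 peak in replicate 2 (score 30).

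AEBP2 in both lists was found at 1888 promoters (8.44% of all promoters) and H3K27me3 at 3349 (15%). H3K27me3 was present at 69.7% of the AEBP2 promoters (95% Wilson interval 67.6 to 71.7), and AEBP2 at 39.3% of the H3K27me3 promoters (37.7 to 41.0). These intervals cover counting error over promoters only, since promoters are not replicates and neighbouring genes can share a peak. The AEBP2 replicates differed in breadth, with peaks at 2032 promoters in replicate 1 and 4983 in replicate 2, whereas the H3K27me3 replicates had 3813 and 3968. AEBP2 replicate 1 therefore set the size of the groups. With replicate 2 alone, 2289 promoters carried both, 2694 carried AEBP2 only and 1060 carried H3K27me3 only, and the share of AEBP2 promoters with the mark was 45.9%. The AEBP2-only and H3K27me3-only groups differed in how empty they were of the other target. Of the 572 AEBP2-only promoters, 537 (93.9%) had no H3K27me3 peak in either list. Of the 2033 H3K27me3-only promoters, 1007 (49.5%) had no AEBP2 peak in either list, 973 had one in replicate 2 only and 53 in replicate 1 only. A window of 2 kb would have moved 8 AEBP2-only and 40 H3K27me3-only promoters into the group with both.

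Developmental transcription factors were the class with the largest share of promoters with both among the 12 classes set out here, although they made up 219 of the 1306 gene symbols of that group. Of 314 such genes, 219 (69.7%, interval 64.5 to 74.6) carried both, 34 carried H3K27me3 only, 61 carried neither and 0 carried AEBP2 only. All 39 Hox genes, which pattern the body axis, were marked, and 37 of them also had AEBP2. One pair of AEBP2 and H3K27me3 peaks in each replicate spanned Hoxb5, Hoxb6, Hoxb7 and Hoxb8. Its scores were 46 and 44 in the AEBP2 lists and 42 and 35 in the H3K27me3 lists. A score is a whole number attached to each peak in the deposited lists, on a scale that is not stated. Peaks with these scores were at or above the score of at least 97.6% of the AEBP2 peaks and 99.3% of the H3K27me3 peaks of their own lists. Hoxd4 had H3K27me3 in both lists and AEBP2 in replicate 2 only.

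Other homeobox genes followed the Hox genes closely, with 101 of 129 carrying both, 16 H3K27me3 only and 12 neither. The highest-ranking were Irx5 (AEBP2 scores 32 and 56, H3K27me3 scores 39 and 31), Nkx1-1, Prox1 and Six2. Irx5 patterns heart and limb, Prox1 directs lymphatic fate and Six2 maintains kidney progenitors. Among the 9 Pax genes, 7 carried both, led by Pax2, Pax7, Pax5 and Pax1, while Pax8 carried H3K27me3 only and Pax4 neither. Among the 6 Gata genes, Gata5, Gata2, Gata6 and Gata3 carried both. Gata4 carried H3K27me3 (scores 12 and 15) with AEBP2 in replicate 2 only (score 21), and Gata1 carried neither. Of the 16 T-box genes 11 carried both, among them Tbx2 (AEBP2 scores 25 and 57) and Tbx1 (20 and 52). Tbr1, a T-box gene of cortical neurons, was marked with scores of 19 and 35 and had no AEBP2 peak in either list. Sox genes carried both in 10 of 18 cases, tissue-specific bHLH genes in 21 of 41 and forkhead genes in 20 of 43, and the remaining forkhead genes were mostly unmarked (20 with neither, 3 with H3K27me3 only).

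**Figure D1:**
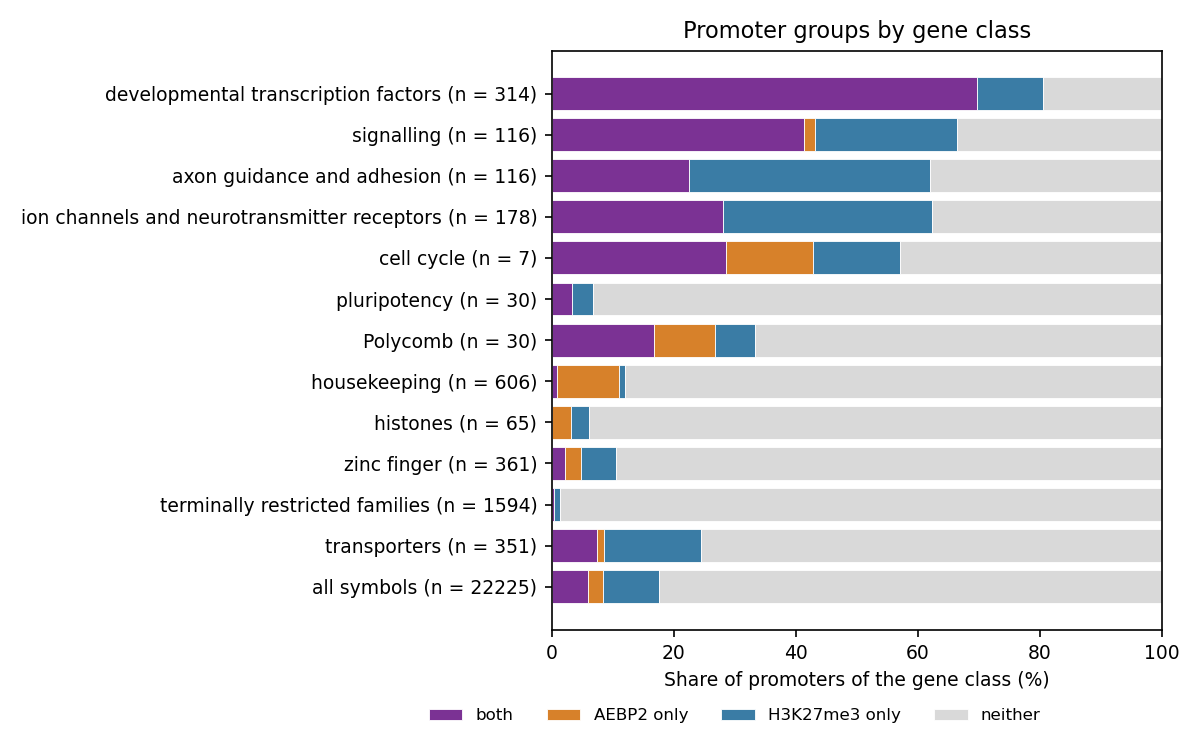
Each bar gives the share of the promoters of a gene class (in %, n is the number of genes) that carried both AEBP2 and H3K27me3, AEBP2 only, H3K27me3 only or neither. Both filled 69.7% of the bar of developmental transcription factors, AEBP2 only filled 10.23% of the housekeeping bar, and neither filled nearly the whole bar of terminally restricted families.

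Signalling genes came next. Of 116 genes of the main developmental pathways, 48 carried both, 27 H3K27me3 only, 2 AEBP2 only and 39 neither. Wnt ligands, which are secreted lipid-modified growth factors, were close to the transcription factors, with 15 of 19 carrying both. Wnt1 had AEBP2 scores of 16 and 47 and Wnt10a of 15 and 47, and the H3K27me3 peak of Wnt10a had the highest score of its list in replicate 1 (58). Wnt16 and Wnt8a were marked without an AEBP2 peak in either list. Of the Hedgehog genes, the ligands Dhh, Ihh and Shh and the receptor Ptch1 carried both, the decoy receptor Hhip carried H3K27me3 only, and the transducer Smo carried neither. Of the Notch genes, the ligands Dll4 (AEBP2 scores 11 and 43) and Dll1 carried both, Jag2 carried H3K27me3 only and 6 carried neither. The secreted antagonists of BMP and Wnt were divided, with 9 of 22 carrying both (led by Grem1, Frzb, Nog and Chrdl2) and 8 carrying H3K27me3 only (led by Sost, Dkk1, Bmper and Dkk2). The 2 signalling genes with AEBP2 only were Fzd6, a Wnt receptor that also had an H3K27me3 peak in replicate 2 (score 2), and Inhbb, an activin subunit with AEBP2 scores of 9 and 14, an FS2-AEBP2 peak and no mark in either list.

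Genes of neuronal wiring and excitability held H3K27me3 at many of their promoters, and AEBP2 at a smaller number. Ion channels and neurotransmitter receptors carried both at 50 of 178 promoters and H3K27me3 only at 61. Axon guidance and adhesion genes carried both at 26 of 116 and H3K27me3 only at 46. Potassium channels were divided into 23 with both (Kcna1, Kcnk9, Kcnd3 and Kcng3 ranked highest) and 36 with H3K27me3 only (Kcnk2, Kcns1, Kcnk10 and Kcng4). The clustered protocadherins, adhesion proteins that give neurons their identity, stood at one end. Of 24 genes, 21 carried H3K27me3 only, 3 carried neither and 0 carried both. These 21 are part of the 46 axon guidance and adhesion genes with H3K27me3 only. Pcdhb19, Pcdha3, Pcdhb21 and Pcdhb22 had the highest-ranking marks among them, and only 4 of the 24 promoters held a CpG-island-like region. Set against the promoters that were marked, AEBP2 was present at 86.6% of developmental transcription factors (219 of 253, interval 81.8 to 90.2), 64.0% of signalling genes, 45.0% of channels and receptors, 36.1% of axon guidance and adhesion genes and 31.7% of solute carriers. The axon guidance and adhesion share took in the 21 marked clustered protocadherins, of which 0 had AEBP2 in both lists. In the rest of that class AEBP2 was at 46.2% of 13 marked Eph receptor and ephrin genes and 50.0% of 10 marked cadherins. For semaphorins, plexins, netrins, Slit and Robo it was at 53.6% of 28 marked genes. Over all marked gene symbols the share was 39.2%. The intervals of transcription factors and signalling genes lay above this value and did not overlap each other, whereas those of channels and of axon guidance genes included it. These shares rest on AEBP2 replicate 1. With replicate 2 alone they were 96.4% for transcription factors, 86.7% for signalling genes, 73.0% for channels and receptors, 68.1% for axon guidance genes and 69.5% for solute carriers, against 68.3% of all marked symbols.

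The presence of AEBP2 at marked promoters went with the length of the H3K27me3 peak. Where the peak of replicate 1 was up to 2 kb long, 10.3% of marked promoters carried AEBP2 in both lists, and the share was 16.5% from 2 to 4 kb, 37.3% from 4 to 8 kb, 67.7% from 8 to 16 kb and 86.1% above 16 kb. With the lengths of replicate 2 the shares were 7.05%, 16.7%, 44.8%, 80.9% and 93.2%. Each AEBP2 list taken alone rose in the same way. The median mark peak was 8276.5 bp in replicate 1 and 7152.5 bp in replicate 2 at promoters with both, against 3957 and 3375 bp at those with H3K27me3 only. Gene classes differed in this length too. The median in replicate 2 was 17941 bp at marked developmental transcription factors, 6687 bp at signalling genes, 5386 bp at channels and receptors and 4616.5 bp over all marked symbols. Among promoters with a mark of 4 to 8 kb in replicate 2, AEBP2 was present at 56.3% of developmental transcription factors (18 of 32), 53.8% of signalling genes (14 of 26), 53.3% of channels and receptors (32 of 60), 48.3% of axon guidance genes (14 of 29) and 44.7% of all symbols. Solute carriers in this range had AEBP2 at 31.4% (11 of 35). The interval for transcription factors, 39.3 to 71.8, included the shares of signalling, channel and axon guidance genes. It also overlapped the interval for solute carriers, 18.6 to 48.0. With a mark of 4 to 8 kb in replicate 1 the shares were 58.8% for transcription factors (20 of 34, 42.2 to 73.6), 58.8% for signalling genes, 47.6% for axon guidance genes, 38.2% for solute carriers, 37.2% for channels and receptors and 37.4% for all symbols. The class differences at matched length thus depended on the list that gave the length, and the numbers were small.

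**Figure D2:**
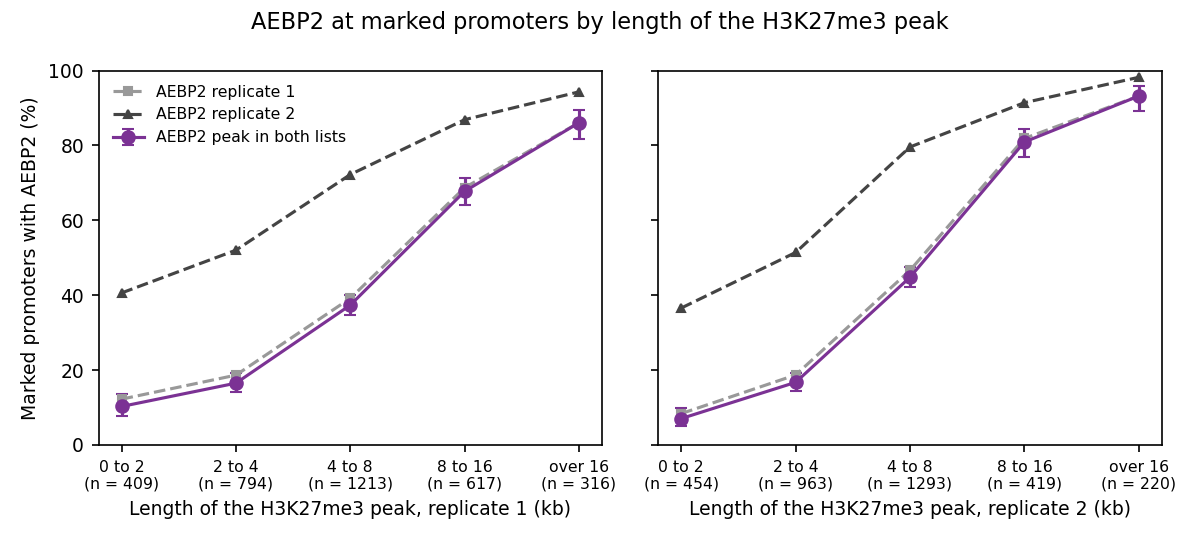
Marked promoters are divided by the length of their H3K27me3 peak (kb, x axis, n promoters) in replicate 1 (left) and replicate 2 (right), and the share with AEBP2 (%, y axis) is given for both AEBP2 lists together with 95% Wilson intervals and for each list alone. The share with AEBP2 in both lists went from 10.3% to 86.1% on the left and from 7.05% to 93.2% on the right.

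The promoters with H3K27me3 only were not of one kind. Those with no AEBP2 peak in either list held a CpG-island-like region in 64.6% of cases, with a median CpG ratio of 0.465, and 3.38% had an FS2-AEBP2 peak. Those with an AEBP2 peak in 1 list held such a region in 92.8% of cases, with a median ratio of 0.595, and 21.7% had an FS2-AEBP2 peak. The highest-ranking marks of the group lay at Lyl1 (H3K27me3 scores 36 and 32, AEBP2 score 30 in replicate 2), Aatf, Yjefn3, Kcnk2 and Hapln2. At Yjefn3 and Hapln2, the latter a link protein of the brain matrix, neither AEBP2 list had a peak. The marks scored 35 and 29 at Yjefn3 and 31 and 28 at Hapln2. The mark peaks of both replicates did not reach the gene start at Aatf, Yjefn3 or Hapln2, and they covered only part of the window there. Of 46 keratins 7 carried H3K27me3 only (15.2%, against 9.09% of all promoters) and 0 carried both (against 5.88% of all promoters). Krt18 and Krt8, the keratins of simple epithelia, ranked first. Only 3 of the 46 keratin promoters held a CpG-island-like region.

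Housekeeping genes gave the opposite picture. Of 606 genes in 12 classes of basic cell function, 62 carried AEBP2 only (10.23%, interval 8.06 to 12.9), 5 carried both, 6 carried H3K27me3 only and 533 carried neither. AEBP2 only was found at 2.56% of all promoters, so the housekeeping share lay above the background. Part of this contrast goes with CpG islands, which nearly all housekeeping promoters have. Among CpG-island-like promoters with no mark peak in either list, 61 of 556 housekeeping genes (10.97%, 8.64 to 13.8) and 526 of 8751 gene symbols (6.01%) carried AEBP2 only. With AEBP2 replicate 2 alone the housekeeping share with AEBP2 only was 31.02%, where 2694 of all 22367 promoters carried AEBP2 only. Among CpG-island-like promoters with no mark peak in either list, replicate 2 had a peak at 33.3% of housekeeping genes and 27.7% of gene symbols. In that set the contrast was thus smaller with replicate 2 alone than with both lists. The 62 housekeeping genes with AEBP2 only by the main rule came from many parts of basic cell function, and the classes with the highest shares are named here. They included 12 of 75 genes of oxidative phosphorylation (Atp5b, Ndufa5, Atp5e and Sdha ranked highest), 9 of 83 cytosolic ribosomal proteins (Rpl22, Rpl36, Rps15 and Rpl10a), 7 of 50 splicing proteins (Snrpb2, Snrpa1, Lsm7 and Lsm5) and 8 of 62 proteins of membrane traffic (Exoc2, Vamp4, Vps28 and Vps13d). Also, 4 of 39 proteasome subunits (Psmd3, Psma1, Psma2 and Psmd5) and 4 of 32 genes of homologous recombination (Palb2, Rad54l, Slx4 and Rad54b) carried AEBP2 only. In the remaining housekeeping classes the share was lower, from 5.00% of nucleoporins to 9.09% of replication licensing and origin recognition genes. For mitochondrial ribosomal proteins it was 6.58% (5 of 76).

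The highest-ranking of these peaks were also at the top of the AEBP2 lists. Rpl22 had scores of 127 and 193, the second of which was the highest in replicate 2. Snrpb2, a protein of the U2 spliceosomal particle, had 137 and 142. Dctn5 and Palb2, which start from opposite strands under 1 peak, had 122 and 189, and Exoc2 and Gm5447, likewise paired, had 148 and 124. By comparison Foxc2, first among the promoters with both, had AEBP2 scores of 35 and 61. The 5 housekeeping genes with both were Psmb9, Psmb8, Snap91, Med12l and Eif4g3. Psmb9 and Psmb8 are interferon-induced proteasome subunits, Snap91 is a synaptic vesicle protein, Med12l is a paralogue of the Mediator subunit Med12, and Eif4g3 is a paralogue of the initiation factor Eif4g1. Psmb9 had AEBP2 scores of 6 and 2 against mark scores of 28 and 23.

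AEBP2 peaks in the marked and unmarked groups differed in shape and position. The median peak was 2103 bp long in replicate 1 and 2872 bp in replicate 2 at promoters with both, against 452.5 and 680.5 bp with AEBP2 only. The peak filled a median of 65.9% and 86.1% of the promoter window with both, and 22.2% and 33.3% with AEBP2 only. At promoters with both its centre lay a median of 543 and 532 bp downstream of the start, inside the gene, and at AEBP2-only promoters 33 and 70 bp downstream. The rank of the peaks within their lists did not separate the groups, with a median percentile of 58.6 in replicate 1 and 81.6 in replicate 2 in each group. At the very top of the replicate 1 list the balance shifted. Of 162 promoters under a replicate 1 peak above the 95th percentile, 57 carried H3K27me3 (35.2%, 28.3 to 42.8), against 79.3% for peaks between the 80th and 95th. In replicate 2 the corresponding shares were 56.1% and 65.2%, but below the 80th percentile they were lower, from 33.9% to 50.3%. The top of the replicate 2 list was therefore not the least marked part of it. Since a peak can lie over 2 genes, the 572 AEBP2-only promoters corresponded to 479 distinct peaks in each list, and the 1316 with both to 1231 and 1216.

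**Figure D3:**
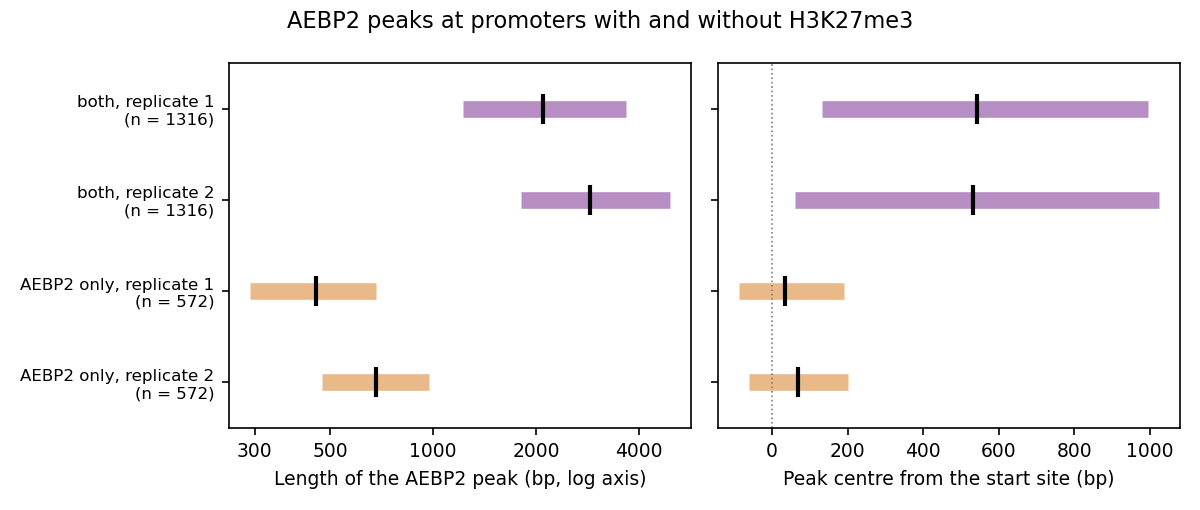
Length of the AEBP2 peak (bp, log axis, left) and distance of its centre from the gene start (bp, positive into the gene, right) at promoters with both and with AEBP2 only, for each replicate. Black ticks are medians and bars span the quartiles, and in replicate 1 the median length was 2103 bp with both and 452.5 bp with AEBP2 only.

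Promoters with AEBP2 only were often shared between a pair of genes on opposite strands. Neighbouring starts up to 1 kb apart on opposite strands that point away from each other were counted as a pair. Such pairs held 19.2% of AEBP2-only promoters (110 of 572, interval 16.2 to 22.7), against 3.04% of promoters with both, 3.10% with H3K27me3 only, 7.42% with neither and 7.07% of all. Both genes of a pair were counted, starts that point towards each other were not, and the background was not limited to CpG-island-like promoters.

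Short sequence motifs were counted within 250 bp of the gene start on both strands. The 10-letter consensus bound by nuclear respiratory factor 1 (NRF1), an activator of mitochondrial and other housekeeping genes, was searched with any base allowed at 1 position and was found at 249 of 572 AEBP2-only promoters (43.5%, 39.5 to 47.6). It was found at 3.65% of promoters with both, 4.23% with H3K27me3 only, 6.65% with neither, 7.20% of all promoters and 12.5% of CpG-island-like promoters. Sites under the highest-ranking AEBP2-only peaks are shown, 30 bases each on the strand of the gene, with the motif in capitals.
Snrpb2: ccacaggaatGCGCGTGCGCagaaagattc
Dctn5: tgttcgctctGCGCACGCGCagctggagac
Pomt1: cgctccggctGCGCACGCGCgtctcagagt
The Snrpb2 site (chr2:142888656-142888685) was centred at -104.5 bp from the gene start, and lay 264 bp from the centre of the replicate 1 peak and 145 bp from that of replicate 2. The Dctn5 site (chr7:129276469-129276498) was shared with Palb2 on the other strand and lay 6.5 bp from the centre of the replicate 1 peak and 32 bp from that of replicate 2. Pomt1, which encodes a protein O-mannosyltransferase, held 2 matches, of which the one shown (chr2:32092080-32092109) was centred at -15.5 bp and lay 170 and 200.5 bp from the peak centres. The other 6 of the 10 highest-ranking AEBP2-only promoters (Rpl22, Exoc2, Gm5447, Snx18, Vamp4 and Cox19) held no match in this window, which says only that the letters searched were absent there.

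In the wider window of 2001 bp, 301 of the 572 AEBP2-only promoters held a match, and the nearest one lay a median of 78.5 bp from the peak centre in replicate 1 and 106 bp in replicate 2. It was within 100 bp of the centre at 58.8% of them in replicate 1 and 46.8% in replicate 2. At the 86 promoters with both that held a match, the median distance was 604 and 549 bp under peaks that were also longer, and 4.65% and 5.81% lay within 100 bp. Read from the sequence, 1534 CpG-island-like promoters held the motif near the start, and 16.0% of them carried AEBP2 only, against 2.92% of those without it. AEBP2 replicate 1 had a peak at 20.3% of those with the motif and 15.4% of those without, and replicate 2 at 56.3% and 36.6%. Of the CpG-island-like promoters with the motif, 75.4% carried neither AEBP2 in both lists nor the mark. Among CpG-island-like promoters with no mark peak in either list, the share with the motif was 9.72% with no AEBP2 peak, 25.6% with AEBP2 in 1 list and 45.5% with AEBP2 in both. Among marked ones the shares were 2.46%, 7.04% and 3.76%.

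The other 8 motifs were searched as exact letters, and none of the 9 contains another. AAGATGGC, bound by YY1, was found at 10.8% of AEBP2-only promoters and 6.76% of all CpG-island-like promoters. Of CpG-island-like promoters with no mark peak in either list, it was at 8.11% with no AEBP2 peak and 11.6% with AEBP2 in both. A 10-letter palindrome centred on CGCG, known from housekeeping promoters, was found at 3.497% of AEBP2-only promoters and 0.702% of all promoters. Among CpG-island-like promoters with no mark peak in either list, it was at 0.668% of those with no AEBP2 peak and 3.598% of those with AEBP2 in both lists. CCGGAAGT, bound by ETS factors, was found at 8.92% of AEBP2-only promoters and 9.34% of CpG-island-like promoters, against 1.06% of promoters with both. Among CpG-island-like promoters with no mark peak in either list it was at 12.96% of those with no AEBP2 peak, 11.2% with AEBP2 in 1 list and 9.09% with AEBP2 in both. The GC box GGGCGG was common everywhere, at 79.1% of AEBP2-only, 76.2% of both and 80.4% of all CpG-island-like promoters. The E-box CACGTG, the CCAAT box, TATAAA and the cAMP response element TGACGTCA were at 11.4%, 41.7%, 6.42% and 2.67% of CpG-island-like AEBP2-only promoters, and at 13.6%, 43.8%, 7.78% and 3.87% of all CpG-island-like promoters.

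**Figure D4:**
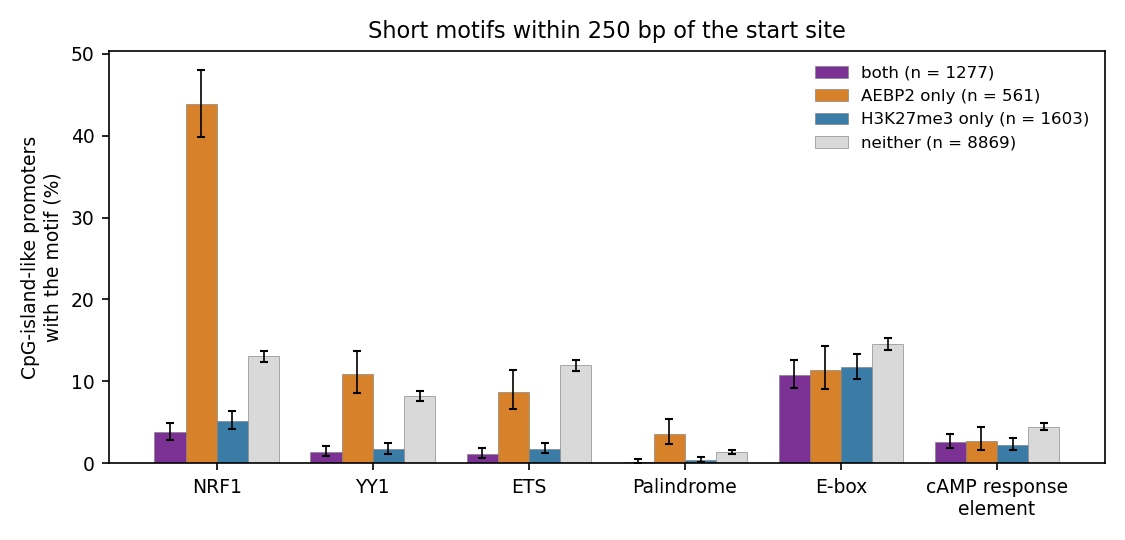
Share of CpG-island-like promoters (%, y axis) of each group that held each of 6 short motifs within 250 bp of the gene start, with 95% Wilson intervals. The NRF1 motif was found at 43.9% of the AEBP2-only promoters, above every other group, while the E-box was found at 10.7% to 14.5% in the 4 groups.

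The tagged protein differed between the groups although it was not used to form them. An FS2-AEBP2 peak overlapped 77.7% of promoters with both (75.4 to 79.9) and 5.77% of those with AEBP2 only (4.14 to 7.99). It overlapped 12.6% of promoters with H3K27me3 only, 0.797% with neither and 6.53% of all. The lists were of like size, with 2884 peaks for FS2-AEBP2 and 2877 for AEBP2 replicate 1. Among the 10 highest-ranking AEBP2-only promoters, Exoc2 and Gm5447 had an FS2-AEBP2 peak and Rpl22, Snrpb2, Dctn5, Palb2, Snx18, Pomt1, Vamp4 and Cox19 had none. Of the developmental transcription factors, 73.9% had an FS2-AEBP2 peak, and of the housekeeping genes 3.47% (21 of 606). The housekeeping classes were not alike, since 12 of these 21 were among the 83 cytosolic ribosomal proteins, a share above that of all promoters. The tagged and endogenous proteins were recovered with different antibodies and protocols, which cannot be told apart here from the tag itself.

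AEBP2-only promoters were unevenly spread over chromosomes. On chromosome 8 they made up 66 of 1082 promoters (6.10%), against 1.05% to 3.67% on the other 18 autosomes. Among its CpG-island-like promoters with no mark peak, 13.996% had a peak in AEBP2 replicate 1 and 40.8% in replicate 2, against 3.45% to 8.63% and 22.3% to 31.9% on the other autosomes. The FS2-AEBP2 share was not raised there, at 0.406% of 493 such promoters on chromosome 8 and 0.465% to 2.86% on the other autosomes. FS2-AEBP2 peaks were rare at unmarked CpG-island-like promoters (146 of 8751 gene symbols), so its shares by chromosome rest on few promoters. The share of promoters with both on chromosome 8, 7.12%, lay within the range of the other autosomes, 3.99% to 8.24%. On the X chromosome 3.04% of unmarked CpG-island-like promoters had a peak in replicate 1 and 5.32% in replicate 2. The copy number of these chromosomes in the cells cannot be read from peak lists. Without chromosome 8, 506 promoters carried AEBP2 only and 71.0% of AEBP2 promoters were marked.

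**Figure D5:**
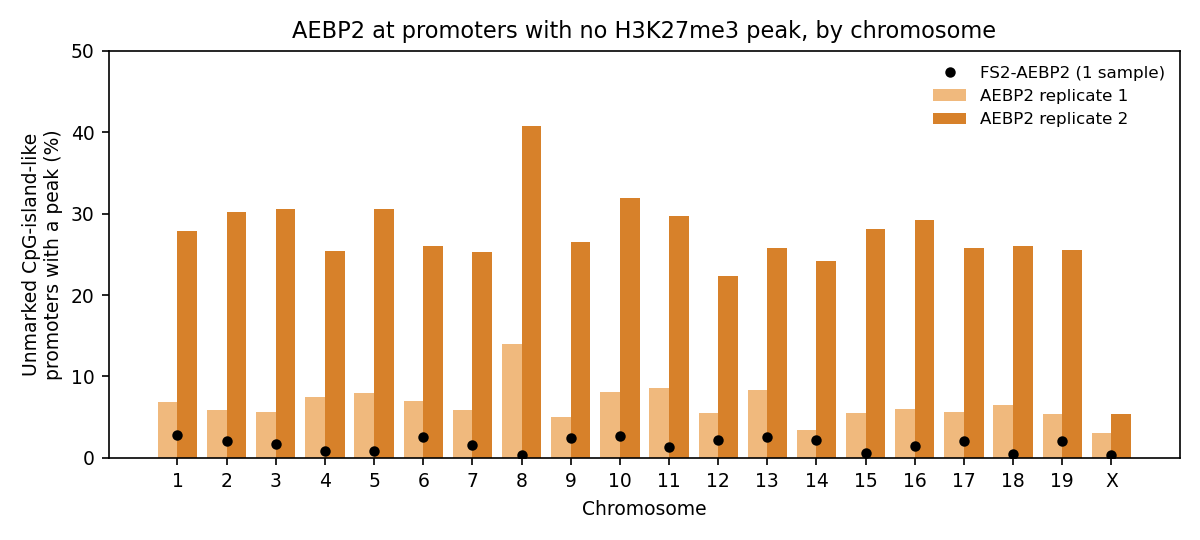
Share of CpG-island-like promoters with no H3K27me3 peak (%, y axis) that had a peak in each AEBP2 replicate (bars) or in the FS2-AEBP2 list (points), by chromosome. Chromosome 8 was highest in both replicates (13.996% and 40.8%) and the X chromosome lowest (3.04% and 5.32%). FS2-AEBP2 had few such peaks on any chromosome and was not raised on chromosome 8 (0.406%).

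Of 30 genes of the pluripotent state, 28 carried neither target (93.3%, 78.7 to 98.2), an interval that includes the share of all gene symbols, 82.4%. Of the others, Tbx3 carried both (AEBP2 scores 11 and 15, H3K27me3 scores 27 and 18) and Prdm14 carried H3K27me3 only (12 and 9). The 11 marker genes of mESCs, among them Pou5f1, Nanog, Sox2, Esrrb and Zfp42, all carried neither. Klf4 was the only one of the 11 with a peak in any list, an H3K27me3 peak of score 7 in replicate 1 and an FS2-AEBP2 peak. A peak list gives no expression, and most gene symbols carry neither target, so these markers do not check the identity of the cells. Of the 11, Pou5f1, Nanog, Esrrb, Zfp42, Tdgf1 and Dppa4 held no CpG-island-like region. The families grouped here as terminally restricted were olfactory and vomeronasal receptors, defensins, keratins and cytochrome P450 genes. Pooled, they were almost free of both targets, but only 21 of their 1594 promoters were CpG-island-like. Of these 21, 5 carried both (23.8%, against 10.3% of all CpG-island-like symbols), 7 carried H3K27me3 only and 9 carried neither. Neither was found at 1084 of 1087 olfactory receptors, all 319 vomeronasal receptors and all 51 defensins. Keratins and cytochrome P450 genes were not free of the mark, with H3K27me3 in both lists at 7 of 46 and 10 of 91, against 15% of all promoters. Of 91 cytochrome P450 genes, 6 carried H3K27me3 only (Cyp46a1, Cyp26b1, Cyp1a1 and Cyp27b1 ranked highest) and 4 carried both. The latter were Cyp24a1, Cyp1b1, Cyp26a1 and Cyp26c1, of which the last pair degrade retinoic acid and Cyp24a1 degrades vitamin D.

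Polycomb genes themselves fell into all groups. Of 11 PRC2 genes, Jarid2 (AEBP2 scores 13 and 32) and Rbbp7 (6 and 4) carried AEBP2 with no mark peak in either list, Phf19 carried H3K27me3 only, and Aebp2, Eed, Ezh1, Ezh2, Mtf2, Phf1, Rbbp4 and Suz12 carried neither. Of 19 PRC1 genes, 5 carried both, among them Cbx8, Bmi1, Yaf2 and Cbx2. Cbx8 had AEBP2 scores of 22 and 27 and H3K27me3 scores of 42 and 40. Pcgf6 carried AEBP2 only, Phc2 carried H3K27me3 only and 12 carried neither. Among the inhibitors of cyclin-dependent kinases, Cdkn1c and Cdkn2a carried both, Cdkn2b carried H3K27me3 only, and Cdkn1a, Cdkn1b and Cdkn2d carried neither. Cdkn2c carried AEBP2 with a mark peak in replicate 1 alone (score 25).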

How the data were processed

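ChIP-seq peak lists of AEBP2 (2 replicates), H3K27me3 (2) and FS2-AEBP2 (1) from wild-type mESCs were used. The authors aligned reads, called broad peaks per sample and deposited a score for each peak, whose scale is not stated and which was compared only within a list. The submitters' processing notes name Bowtie, SAMtools, Picard and MACS2 without roles. The build was taken as mm9 because no peak passed a chromosome end. H3K27me3 list names seem to carry the opposite replicate numbers to the records, which were followed. SUZ12, input and mutant samples were not analysed here. Of the peaks, 2 in AEBP2 replicate 1 and 13 in H3K27me3 replicate 2 lay on other sequences and were left out.

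Windows of 1 kb around gene starts (GENCODE vM1) counted with at least 1 bp of overlap. CpG-island-like regions joined 500 bp windows, taken every 10 bp, with at least 55% GC and a CpG ratio of at least 0.65. The 47 gene lists were patterns on symbols, with 1 entry for each of 22225 symbols. Intervals are 95% Wilson. With 2 lists per target and no read counts, no test between groups was run. Members, lists and motifs were chosen with earlier results of these data known, and the gene pattern for ribosomal proteins was narrowed once to drop pseudogenes. Named are the 10 promoters of highest mean rank in each occupied group, up to 4 by rank per list and group, every member of groups of 5 or fewer, and all Polycomb, pluripotency, Cdk inhibitor and Hedgehog genes, except for a few that are not reported here. The sorting was checked on 15597 simulated promoters, of which 100% were returned. Both lists of a target held the same planted promoters, so the check did not try the need for a peak in each list. Python 3.11.15, numpy 2.4.6, pandas 2.3.3, pysam 0.24.0 and matplotlib 3.10.9 were used. Alternatives were either list, each list left out, other windows, overlaps, starts and scores, 1 gene per run of overlapping windows, CpG-island-like promoters only, and no chromosome 8, which was chosen after seeing the data.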

Additional observations from a re-analysis of the deposited data

How the results depend on the processing

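Of 126 values recomputed over 14 alternatives, 92 moved by less than counting error or 1.5 times and 34 moved more. With a peak of either list, 2562 promoters carried both and 2565 AEBP2 only, 50.0% of AEBP2 promoters were marked and 57.8% of marked promoters had AEBP2. With at least 500 bp of the window covered, 219 carried AEBP2 only and 84.0% of AEBP2 promoters were marked. With scores at or above the list median, 740 carried both, 318 AEBP2 only, and 28.6% of marked promoters had AEBP2. With 1 gene per run of overlapping windows, 72.3% of AEBP2 promoters were marked, and on CpG-island-like promoters 44.3% of marked promoters had AEBP2. Leaving out 1 list at a time gave 1322 to 2289 promoters with both, 543 to 2694 with AEBP2 only, 1060 to 2623 with H3K27me3 only, 45.9% to 71.2% of AEBP2 promoters marked and 33.9% to 68.3% of marked promoters with AEBP2. The ends 2289, 2694, 1060, 45.9% and 68.3% came from leaving out AEBP2 replicate 1. Over all alternatives, developmental transcription factors with both ranged from 61.8% to 80.7%, housekeeping genes with AEBP2 only from 4.13% to 32.0%, and AEBP2-only promoters with the NRF1 motif from 28.2% to 45.6%. The cause was not tested. No paired analysis was possible because the values are counts and shares from no test. By replicate number, 67.7% of AEBP2 promoters were marked in replicate 1 and 49.0% in replicate 2, and AEBP2 was at 36.1% and 61.6% of marked promoters, where the numbering of the H3K27me3 lists is uncertain. Depth is unknown, so a missing peak does not show that a target was absent.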
